A study of Sus scrofa with 8 samples.

Results

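Committed myoblasts with little MYH3 were taken from single-cell transcriptomes of pig somites and myotomes as cells that carried MYOD1 or MYOG RNA but almost no RNA of the embryonic myosin heavy chain MYH3. A cell was included when it held at least 1 unique molecular identifier (UMI, a tag that counts each captured RNA molecule once) of MYOD1 or MYOG, at most 1 UMI of MYH3 and 0 UMIs of MYBPC3. In all, 3190 of 82394 cells met these conditions. The cells were thus chosen by their UMIs of MYOD1, MYOG, MYH3 and MYBPC3, and because these 4 genes chose them, their values are given as a description and were not tested.

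MYOD1 and MYOG are myogenic regulatory factors, basic helix-loop-helix proteins that bind E-box sequences and switch on muscle genes. In the embryo, cells of the dermomyotome that carry PAX3 or PAX7 give rise to muscle cells that turn on MYF5, MYOD1 and MYOG, leave the cell cycle, fuse and assemble sarcomeres. Notch signalling holds muscle precursors back from differentiation through HES and HEY repressors, and CDK inhibitors such as CDKN1C and CDKN1A accompany the exit from division.

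Somites were dissected at embryonic day (E) 16, E18 and E21 and myotomes at E28, from Tibetan pigs (ZZ) and from Duroc x Tibetan crosses (DZ). Each of the 8 libraries was made from 1 pool of 5 embryos of a single sow, and there was 1 library for each stage and breed. E28 differed from E21 in the dissected tissue as well as in age, and the effects of these cannot be told apart. In the stage comparisons the 2 libraries of a stage, which were of different breeds, served as its replicates. Their p-values measure the spread between these pools, breed included. In comparisons with the library as a block, p-values measure the spread of the differences within libraries. Cells were never treated as replicates in a test. Paired values below are given with ZZ first and DZ second.

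The E16 libraries held 3 and 9 such cells, or 0.0476% and 0.0849% of the cells kept. At E18 there were 19 and 31 (0.184% and 0.300%), at E21 there were 315 and 276 (2.71% in both) and at E28 there were 987 and 1550 (9.08% and 12.7%). The 95% exact (Clopper-Pearson) intervals of the E28 shares ran from 8.55% to 9.64% and from 12.1% to 13.3%, those of the E21 shares from 2.43% to 3.03% and from 2.40% to 3.04%, and those of the E18 shares from 0.111% to 0.288% and from 0.204% to 0.425%. These intervals cover counting error only. The share was higher at E21 than at E18 and higher at E28 than at E21, and the intervals of these stages did not overlap, whereas those of E16 reached 0.139% and 0.161% and overlapped that of E18-ZZ.

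**Figure D1:**
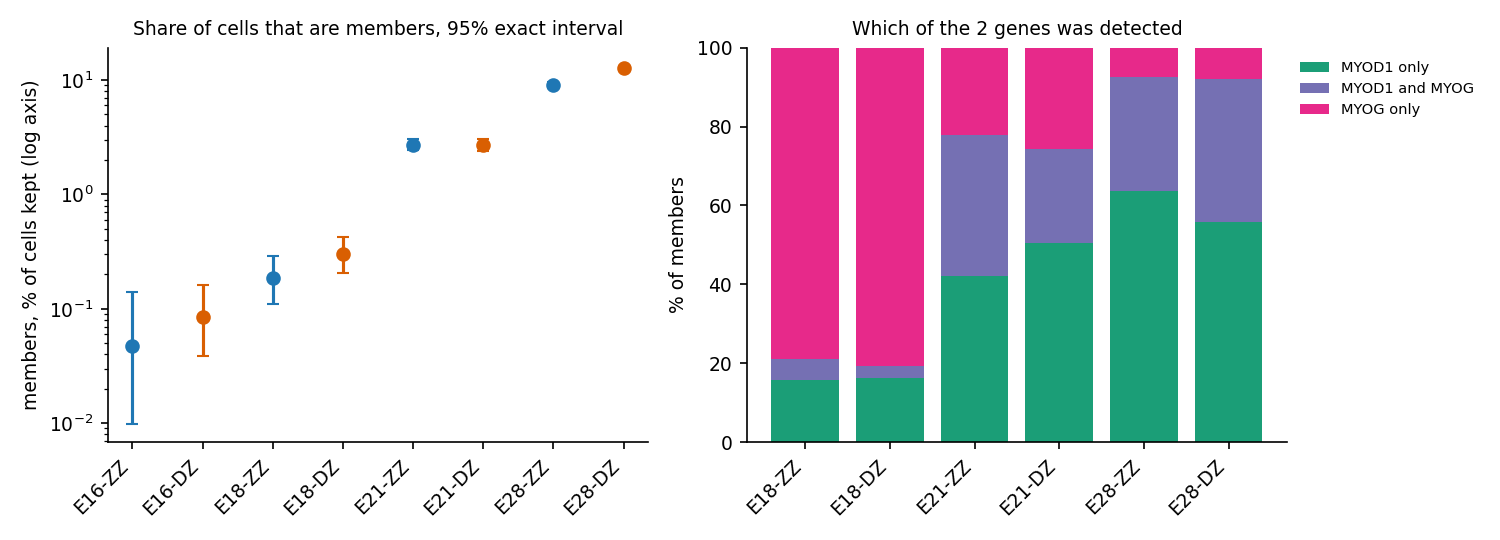
Share of cells that were MYOD1- or MYOG-positive with little MYH3 in each library (left, % on a log axis, points with 95% exact binomial intervals, ZZ in blue and DZ in orange) and, for the libraries from E18 on, the % of these cells in which MYOD1 alone, both genes or MYOG alone was detected (right, stacked bars from 0 to 100%). The share was 0.0476% to 0.0849% at E16 and 9.08% to 12.7% at E28, and MYOG alone made up 80% of the cells at E18 but 7.65% at E28.

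As a description of the genes that chose the cells, MYOD1 and MYOG were detected in different shares at each stage. MYOG alone was detected in 15 of 19 and 25 of 31 cells at E18. At E21, MYOD1 alone was found in 42.2% and 50.4% of the cells, both genes in 35.6% and 23.9%, and MYOG alone in 22.2% and 25.7%. At E28 these shares were 63.6% and 55.8% for MYOD1 alone, 29.1% and 36.3% for both, and 7.29% and 7.87% for MYOG alone. A cell chosen by a single UMI can show only 1 of the 2 genes, and 86% of the E18 cells were chosen in this way, so that the rule itself sets much of these shares. Summed over the cells, MYOD1 reached 36.9 and 23.6 CPM (the UMIs of a gene scaled to a common total of UMIs in the summed cells) at E18, 282 and 188 CPM at E21 and 395 and 435 CPM at E28. MYOG stood at 125 and 118, 159 and 104 and 117 and 163 CPM at the same stages, so its level overlapped between stages while that of MYOD1 did not. When every cell was thinned to 1500 UMIs, MYOD1 was still seen in 0 and 2 of the E18 cells, and MYOG in 4 and 9. MYF5, the family member that usually comes on first, was detected in 54.5% of the myoblasts at E21 and in 61.8% at E28. PAX7, a marker of muscle progenitors that later persists in satellite cells, was found in 25.0% and 32.6%. Thinned to 1500 UMIs, MYF5 was seen in 23.5% and 24.6% of the cells at E21 and in 28.5% and 41.0% at E28, and PAX7 in 8.57% and 7.61% and in 14.5% and 11.6%.

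Few cells lay just outside the limit on MYH3. Of the cells with MYOD1 or MYOG, 2906 held 0 UMIs of MYH3 and 284 held 1. Just outside the limit, 74 cells held 2 UMIs, 23, 24 and 24 held 3, 4 and 5, and 355 held 6 or more. Only 1 further cell was left out for MYBPC3, a thick filament protein.

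**Figure D2:**
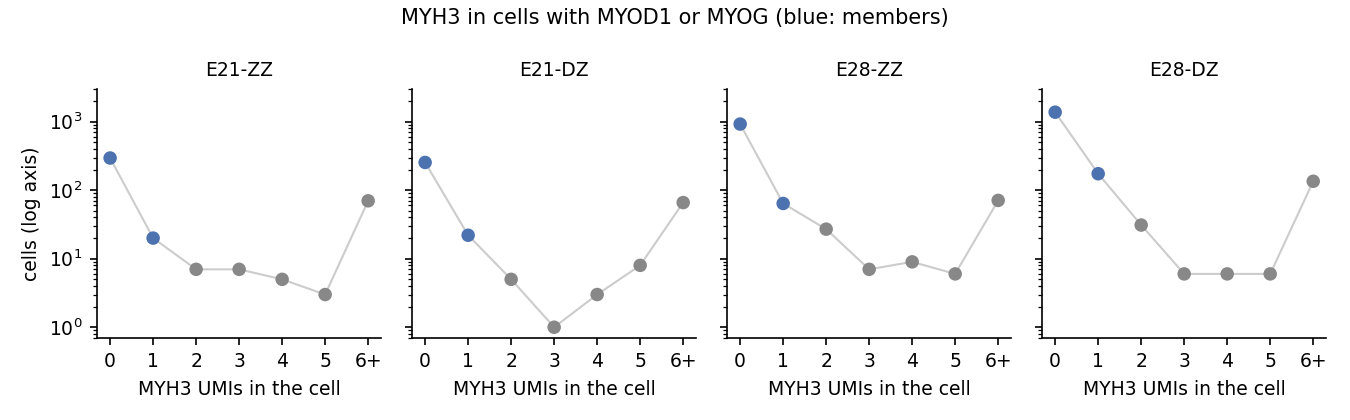
Number of cells with MYOD1 or MYOG (log axis) by their MYH3 UMIs, from 0 to 6 or more, in the E21 and E28 libraries; blue points were included and grey points were not. Over all libraries, 2906 cells held 0 UMIs, 74 held 2 and 355 held 6 or more.

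A single UMI carried the choice in 43 of 50 E18 cells, 52.3% of the E21 cells and 39.6% of the E28 cells, and RNA released from broken cells can supply single UMIs. Cells of other types, which should lack both genes, were taken as all cells with at least 3 markers of the type. Myoblasts were not left out of them, so their shares are not a separate measure of released RNA. Endothelial cells of E21 held MYOD1 or MYOG in 3 of 157 and 1 of 74 (1.91% and 1.35%, median depth 6491 and 8716 UMIs). Of these, 2 and 1 were myoblasts. Those of E28 held either RNA in 4 of 101 and 2 of 85 (3.96% and 2.35%, median depth 8634 and 8898 UMIs). Here 2 and 2 were myoblasts. Median depths in the myoblasts were 5433 to 6714.5 UMIs for E21 and 5467 and 4866.5 for E28. At E16 the endothelial share was 0 of 668 (which allows up to 0.449%) and 2 of 1213 (0.165%), against 0.0476% and 0.0849% of all cells as myoblasts. These 2 cells were themselves among the myoblasts. Erythroid cells of E16 held either RNA in 0 of 193 and 0 of 852. At E18 the endothelial share was 0 of 359 (up to 0.836%) and 1 of 411 (0.243%), near the myoblast shares of 0.184% and 0.300%. That 1 cell was a myoblast. Erythroid cells of E18 held either RNA in 7 of 1965 and 1 of 227 (0.356% and 0.441%, median depth 6275 and 7633 UMIs), above the myoblast shares of that stage. Of the 19 myoblasts of E18-ZZ, 4 held at least 3 erythroid markers (21.1%, against 19.1% of all its cells). These 4 are counted among the 7 erythroid cells, whereas the 1 erythroid cell of E18-DZ was not a myoblast. The part of released RNA in the choice of the E18 cells was not tested. At E21 erythroid cells held either RNA in 1 of 75 and 3 of 101 (1.33% and 2.97%), against myoblast shares of 2.71% in both libraries. These 1 and 3 cells were myoblasts. Neurons of E21 held either RNA in 22 of 2388 and 9 of 1073 (0.921% and 0.839%), of which 16 and 5 were myoblasts. Erythroid cells held either RNA in 11 of 97 and 4 of 94 cells at E28 (11.3% and 4.26%), of which 8 and 3 were myoblasts. Neurons of E28 held either RNA in 2 of 68 and 14 of 274 (2.94% and 5.11%), of which 2 and 9 were myoblasts. The part of such RNA in the choice of the E21 and E28 cells was not tested. Other muscle genes were more frequent in the cells of E18, E21 and E28 than in all cells. At least 3 of 12 skeletal muscle markers that the choice did not use were present in 84.2% and 77.4% of the E18 myoblasts, 86.7% and 88.0% of the E21 myoblasts, and 89.2% and 92.4% of the E28 myoblasts. Among all cells of the 3 stages these shares were 6.77% and 7.46%, 11.9% and 13.2%, and 18.5% and 31.3%. At E16, 0 of the 12 cells carried them and 6 held at least 3 epithelial markers, which were present in 37.3% and 38.2% of all E16 cells. With no cell at 3 skeletal muscle markers, the E16 cells went against the name of myoblasts. The E16 libraries, with 3 and 9 such cells, were under the minimum number of cells and were left out of every comparison below.

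Genes of other cell types were also present. Fibroblast markers, at least 3 of them, were found in 26.3% and 19.4% of the E18 myoblasts, 49.5% and 48.9% of the E21 myoblasts, and 78.4% and 65.7% of the E28 myoblasts, against 40.0% and 40.7%, 50.2% and 63.2%, and 92.3% and 85.6% of all cells. Neuron markers were found in 5.08% and 1.81% of the E21 myoblasts and in 0.203% and 0.581% of the E28 myoblasts, and cardiac markers in 0%. The summed neuron markers reached 1117 and 415 CPM in the myoblasts at E21, 220.0 and 308 CPM at E28, and 22.1 and 55.1 CPM at E18. The erythroid markers ran from 189 to 4690.4 CPM. The part of these cell types in the results was not tested.

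The nearest earlier cells were muscle progenitors, taken as cells with at least 1 UMI of MYF5, 0 UMIs of MYOD1 and MYOG, at most 1 of MYH3 and 0 of MYBPC3, of which there were 3793. The nearest later cells were 599 myocytes with at least 2 UMIs of MYH3, at least 1 of the fusion gene MYMK and 0 of MYBPC3. Counts were summed over the cells of each kind in each library and compared with edgeR's quasi-likelihood test, with the library as a block and Benjamini-Hochberg adjusted p-values over all genes tested. Differences are log2 fold changes ± standard error. The groups were cut by RNA counts in the same cells, so these comparisons describe groups defined by MYF5, MYOD1, MYOG, MYH3 and MYMK and are not independent of that choice. A count of 0 UMIs does not show that an RNA was absent, so some progenitors may have held MYOD1 or MYOG RNA that was not captured.

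Within the myoblasts, cells with MYOG showed more RNA of the contractile apparatus and of cell cycle inhibitors, and less of mitosis and progenitor genes, than cells with MYOD1 alone. The 4 libraries of E21 and E28 held 1363 cells with MYOG and 1765 with MYOD1 alone. Median depths of the cells with MYOG and those with MYOD1 alone were close, 5603 against 5353 UMIs in E21-ZZ, 6456 against 7178 in E21-DZ, 5678 against 5347 in E28-ZZ and 4780.0 against 4963 in E28-DZ. Of 9659 genes tested, 20.4% were called, 11.8% as higher and 8.67% as lower in the cells with MYOG.

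All 28 mitosis genes tested were lower in the cells with MYOG, with a median of −0.72, against −0.01 over all genes tested. TOP2A, which untangles DNA before chromosomes separate, stood at 661 and 725 CPM at E21 and 617 and 561 CPM at E28 in cells with MYOD1 alone and at 389.6 and 159 CPM at E21 and 342 and 293 CPM at E28 in cells with MYOG. The levels of the 2 kinds did not overlap (−1.01 ± 0.15, adjusted p = 6.1e-05). CCNB1, the cyclin that drives entry into mitosis, was at 103 and 116 CPM at E21 and 129 and 128 CPM at E28 with MYOD1 alone and at 64.9 and 22.3 CPM at E21 and 86.8 and 62.4 CPM at E28 with MYOG (−0.81 ± 0.14, adjusted p = 3.8e-04). CENPF, a kinetochore protein, and KIF11, a spindle motor, differed by −0.99 ± 0.13 and −0.91 ± 0.13. Of 24 S phase genes, 15 were lower and 1 was higher, with a median of −0.52. They included the replication helicase gene MCM4 (−0.79 ± 0.11) and CLSPN, a checkpoint adaptor at replication forks (−0.97 ± 0.13). Without E28-ZZ or E28-DZ, 26 of 28 and 25 of 27 mitosis genes were lower, and DESeq2 called 19 of 28.

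In the list of cell cycle exit genes, which also holds D-type cyclins, 7 of 14 were higher and 1, GADD45A, was lower. The 7 were the inhibitor or arrest genes CDKN1A, CDKN1C, GADD45G and RB1 and the 3 cyclin genes CCND1, CCND2 and CCND3. CDKN1C, the p57 inhibitor of cyclin-dependent kinases, was at 911 and 778 CPM at E21 and 906 and 921 CPM at E28 with MYOD1 alone and at 1833 and 1678 CPM at E21 and 2329 and 2069 CPM at E28 with MYOG (1.30 ± 0.05, adjusted p = 5.9e-12). CDKN1A, the p21 inhibitor, stood at 3.90 and 17.7 CPM at E21 and 3.48 and 8.03 CPM at E28 with MYOD1 alone and at 51.6 and 61.6 CPM at E21 and 36.2 and 43.4 CPM at E28 with MYOG (2.75 ± 0.20, adjusted p = 9.5e-09). For both inhibitors the cells with MYOG were higher in each of the 4 libraries. GADD45G, a growth arrest gene, was 1.15 ± 0.11 and RB1, the retinoblastoma protein that restrains E2F, 0.70 ± 0.21. CCND1, like the other D-type cyclins, promotes the passage through G1, and was at 193 and 136 CPM at E21 and 164 and 242 CPM at E28 with MYOG against 158 and 112 CPM at E21 and 126 and 226 CPM at E28 with MYOD1 alone (0.38 ± 0.07, adjusted p = 5.7e-04).

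Of 25 sarcomere genes, 23 were higher in the cells with MYOG, with a median of 1.27, and 0 were lower. ACTN2, the alpha-actinin of the Z-disc, stood at 51.9 and 46.5 CPM at E21 and 58.9 and 105 CPM at E28 with MYOD1 alone and at 290.0 and 239.9 CPM at E21 and 338 and 514 CPM at E28 with MYOG (2.54 ± 0.08, adjusted p = 1.1e-13). ACTC1, the cardiac alpha-actin that embryonic skeletal muscle uses first, stood at 2329 and 2288 CPM at E21 and 2210.3 and 4518 CPM at E28 with MYOD1 alone and at 7608 and 6778 CPM at E21 and 7610.3 and 10322 CPM at E28 with MYOG (1.70 ± 0.06, adjusted p = 7.3e-13). TNNT2, a troponin T shared by the heart and early skeletal muscle, and MYL1, an essential light chain, differed by 2.69 ± 0.15 and 2.18 ± 0.09. Among 11 genes of the synapse and calcium handling, 8 were higher. These included ATP2A1, the calcium pump of the sarcoplasmic reticulum (2.65 ± 0.12, adjusted p = 2.6e-11), and CHRNA1, the alpha subunit of the muscle acetylcholine receptor. CHRNA1 was at 51.9 and 38.1 CPM at E21 and 31.6 and 39.7 CPM at E28 with MYOD1 alone and at 152 and 148.6 CPM at E21 and 96.6 and 153 CPM at E28 with MYOG (1.94 ± 0.09, adjusted p = 4.3e-11).

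Fusion genes were mixed, with 5 of 15 higher and 2 lower. MYMK, the membrane protein Myomaker that is needed for myoblasts to fuse, stood at 192 and 153 CPM at E21 and 172 and 277 CPM at E28 with MYOD1 alone and at 738 and 585 CPM at E21 and 735 and 917 CPM at E28 with MYOG (2.06 ± 0.07, adjusted p = 9.4e-13). The adhesion genes JAM3 and CDH15 (M-cadherin) were also higher (1.04 ± 0.07 and 0.70 ± 0.08), whereas CDH2 (N-cadherin) was lower (−0.70 ± 0.15). Among 19 differentiation regulators, 9 were higher, led by SMYD1, a methyltransferase of muscle assembly (1.93 ± 0.12), MEF2C (1.67 ± 0.10) and VGLL2, a TEAD cofactor (1.44 ± 0.08), and 3 were lower.

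The progenitor genes ran against this, with 8 of 17 lower and 2 higher. PAX7 was at 57.1 and 61.4 CPM at E21 and 132 and 131 CPM at E28 with MYOD1 alone and at 34.7 and 48.8 CPM at E21 and 62.2 and 39.1 CPM at E28 with MYOG (−1.08 ± 0.14, adjusted p = 2.1e-05). PAX3, which marks dermomyotome and migrating precursors, and MSC, a helix-loop-helix repressor, were lower as well (−1.27 ± 0.16 and −1.56 ± 0.14). EYA2, a transcriptional coactivator, was an exception and was higher (1.23 ± 0.10). MYF5 was lower, at 189 and 185 CPM at E21 and 171 and 294 CPM at E28 against 217 and 222 CPM at E21 and 339 and 630.0 CPM at E28 (−0.57 ± 0.12, adjusted p = 0.0014). Of 12 Notch genes, 6 were lower and 4 higher. HEY1, a Notch target and repressor, stood at 22.1 and 63.2 CPM at E21 and 49.0 and 48.6 CPM at E28 with MYOD1 alone and at 13.3 and 29.7 CPM at E21 and 16.1 and 13.6 CPM at E28 with MYOG (−1.38 ± 0.15, adjusted p = 2.4e-06), and the receptor NOTCH3 was lower too (−0.90 ± 0.12). HEYL and HES6 were higher (1.01 ± 0.13 and 0.90 ± 0.08), the second being a HES protein that opposes HES1. All 6 sclerotome and cartilage genes tested and 5 of 9 fibroblast genes were lower in the cells with MYOG, among them COL2A1 (−0.50 ± 0.08) and DCN (−0.71 ± 0.07), and 7 of 21 HOX genes were lower, among them HOXC8 (−0.65 ± 0.07).

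To set these genes beside the sequences before their starts, 200 bases upstream of the RefSeq gene start were read from the Sscrofa11.1 assembly for MYOG, which chose the cells, and for CHRNA1 and MYMK, which differed between them. They are printed 5′ to 3′ on the strand of the gene, and capitals mark every match to the E-box CANNTG, the core to which MYOD1 and MYOG bind, or to CTANNNNTA, the core of MEF2 sites, searched on both strands.
MYOG, chr9:113785313-113785512, minus strand: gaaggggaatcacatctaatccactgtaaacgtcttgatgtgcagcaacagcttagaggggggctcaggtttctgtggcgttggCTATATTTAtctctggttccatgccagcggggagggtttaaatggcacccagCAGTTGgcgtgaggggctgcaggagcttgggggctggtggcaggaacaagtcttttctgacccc
CHRNA1, chr15:80692257-80692456, minus strand: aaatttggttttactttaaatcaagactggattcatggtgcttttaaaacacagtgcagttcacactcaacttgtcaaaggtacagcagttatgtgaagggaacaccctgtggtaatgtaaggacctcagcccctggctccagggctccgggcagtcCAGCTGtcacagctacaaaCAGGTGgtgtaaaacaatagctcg
MYMK, chr1:273111722-273111921, minus strand: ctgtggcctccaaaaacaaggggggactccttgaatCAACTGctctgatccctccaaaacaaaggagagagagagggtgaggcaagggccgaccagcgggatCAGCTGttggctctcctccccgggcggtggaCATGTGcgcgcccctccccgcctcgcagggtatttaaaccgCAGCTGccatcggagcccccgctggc
MYOG held CAGTTG starting 64 bases and CTATATTTA 116 bases before its start. CHRNA1 held CAGCTG at 43 and CAGGTG at 24 bases, and MYMK held 4 E-boxes, at 164, 98, 67 and 26 bases, of which those at 98 and 26 had the same letters as the first of CHRNA1. That form of the E-box, CAGCTG, was present in 11.2% of 19522 promoters of this length, in 9.63% of 8496 promoters of genes tested, in 12.4% of 985 promoters of genes higher with MYOG and in 7.65% of 745 promoters of genes lower with MYOG. Any CANNTG was found in 53.3%, 47.5%, 50.2% and 44.2%, and CTANNNNTA in 10.2%, 7.89%, 9.24% and 7.38%. These are matches of letters, and binding was not measured.

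Compared with the MYF5+ progenitors of the same libraries, the myoblasts carried more sarcomere RNA and more MYMK, CDKN1C and CDKN1A, and less PAX3, PAX7 and HEY1, and no mitosis gene was called in either direction. The comparison used E18-DZ and the 4 libraries of E21 and E28, since E18-ZZ held fewer than 20 myoblasts. Of 11241 genes tested, 15.7% were called, 8.46% as higher and 7.26% as lower in the myoblasts. Median depth was 4262 to 6277 UMIs in the progenitors and 4866.5 to 6714.5 UMIs in the myoblasts, which were the deeper in each of the 5 libraries, and with every cell thinned to 1500 UMIs 928 genes were called in place of 1767.

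Of 27 sarcomere genes, 23 were higher in the myoblasts and 0 lower, with a median of 1.40, against −0.02 over all genes tested. ACTN2 was at 7.81 CPM in E18-DZ, 5.93 and 7.98 in the E21 libraries and 10.6 and 26.0 in the E28 libraries in progenitors and at 19.7 CPM in E18-DZ, 193 and 137 in the E21 libraries and 164 and 287 in the E28 libraries in myoblasts (3.91 ± 0.15, adjusted p = 2.5e-14). ACTC1 was at 427 CPM in E18-DZ, 709.6 and 722 in the E21 libraries and 626 and 2057 in the E28 libraries in progenitors and at 1417 CPM in E18-DZ, 5462 and 4384 in the E21 libraries and 4234 and 7097 in the E28 libraries in myoblasts (2.46 ± 0.13, adjusted p = 6.3e-12). In both genes every myoblast value lay above the progenitor value of its library. The fusion gene MYMK was at 31.8 to 63.5 CPM in progenitors and 315 to 561 CPM in myoblasts (3.26 ± 0.10, adjusted p = 7.9e-16), and CHRNA1 at 6.62 to 16.3 CPM and 56.0 to 111 CPM (2.87 ± 0.10, adjusted p = 3.4e-15). The other genes of largest increase were SHD (3.32 ± 0.13), MYL1 (3.02 ± 0.13), RASSF4 (2.85 ± 0.08), FNDC5, the precursor of irisin (2.65 ± 0.11), RRAD, a GTPase that restrains calcium channels (2.51 ± 0.10), and ARPP21 (2.47 ± 0.08).

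CDKN1C was at 269 CPM in E18-DZ, 342 and 262 in the E21 libraries and 381 and 453 in the E28 libraries in progenitors and at 925 CPM in E18-DZ, 1458 and 1198 in the E21 libraries and 1439 and 1431 in the E28 libraries in myoblasts (2.01 ± 0.07, adjusted p = 9.3e-15). CDKN1A differed by 3.08 ± 0.19 and GADD45G by 1.64 ± 0.09. In all, 6 of 15 genes of the cell cycle exit list were higher, CDKN1A, CDKN1C and GADD45G and the 3 D-type cyclins, and 2, GADD45A and GADD45B, were lower. The mitosis genes did not follow. Of 28, edgeR called 0 and DESeq2 called 0, 3 had an unadjusted p under 0.05, against 28.0% of all genes tested, and the median was −0.10. TOP2A was at 603 CPM in E18-DZ, 644 and 555 in the E21 libraries and 487 and 479 in the E28 libraries in progenitors and at 374 CPM in E18-DZ, 499.9 and 461 in the E21 libraries and 514 and 442 in the E28 libraries in myoblasts, and the difference missed the threshold (−0.15 ± 0.08, adjusted p = 0.23). CCNB1 was at 94.5 to 144 CPM and 70.9 to 113 CPM (−0.05 ± 0.10, adjusted p = 0.8). Values of both groups overlapped. Of 25 S phase genes, 11 were lower and 1 was higher, with a median of −0.29 and the widest differences in CLSPN (−0.49 ± 0.12), DTL (−0.44 ± 0.13) and UHRF1 (−0.44 ± 0.08).

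Progenitor regulators were lower in 8 of 16 cases and higher in 3. PAX7 stood at 45.5 CPM in E18-DZ, 90.2 and 104 in the E21 libraries and 160.0 and 171 in the E28 libraries in progenitors and at 3.94 CPM in E18-DZ, 43.8 and 55.5 in the E21 libraries and 106 and 90.3 in the E28 libraries in myoblasts (−0.76 ± 0.09, adjusted p = 1.3e-06). PAX3 was at 41.1 to 132 CPM and 18.1 to 43.1 CPM (−0.98 ± 0.10, adjusted p = 1.7e-07). DMRT2, a dermomyotome factor, and MSC were also lower (−0.99 ± 0.12 and −0.91 ± 0.13). Among the higher ones were EYA2 (2.0 ± 0.14, adjusted p = 8.4e-10) and EYA4. Among 22 differentiation regulators, 9 were higher, led by SMYD1 (3.03 ± 0.18), SOX8 (2.01 ± 0.16), VGLL2 (1.92 ± 0.10) and MEF2C (1.76 ± 0.09), and ID2 and TEAD1 were lower. Notch genes split, with 7 of 16 lower and 4 higher. HEY1 was at 16.5 CPM in E18-DZ, 57.5 and 69.5 in the E21 libraries and 74.4 and 83.8 in the E28 libraries in progenitors and at 7.87 CPM in E18-DZ, 16.9 and 47.6 in the E21 libraries and 36.7 and 33.0 in the E28 libraries in myoblasts (−1.03 ± 0.11, adjusted p = 8.5e-07), and NOTCH3 differed by −0.89 ± 0.09. HES6 and HEYL were higher (0.98 ± 0.09 and 0.90 ± 0.16).

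Of 17 genes of fusion and adhesion, 4 were higher, MYMK and CDH15 included, and 5 were lower, with a median of −0.11. The adhesion genes split, JAM3 and ITGA4 being higher (1.03 ± 0.07 and 0.81 ± 0.13) and CDON, a cell surface partner of cadherins, lower (−0.63 ± 0.12). The strongest decreases outside the lists were in NTN5 (−1.28 ± 0.13), S1PR3, a receptor of sphingosine 1-phosphate (−1.17 ± 0.11), GXYLT2 (−1.12 ± 0.10) and RSPO3, an enhancer of WNT signalling (−1.04 ± 0.10). HOX genes were lower in 6 of 23 cases, led by HOXC5 (−0.61 ± 0.09), and fibroblast genes in 7 of 9, led by COL1A1 (−0.61 ± 0.10). Of other cell type markers, the epithelial KRT18 and KRT8 (2 of 3 tested) and the neuronal INA and STMN2 (2 of 7) were lower. The neural crest and glia genes SCRG1 and ERBB3 (2 of 5) were higher, and erythroid and tendon genes were called in both directions. The part of these cell types was not tested. EGR1, an immediate early factor, missed the threshold (−0.14 ± 0.08, adjusted p = 0.24), and RHOB, a small GTPase of the cytoskeleton, was higher (0.49 ± 0.07, adjusted p = 5.0e-05). DES, the muscle intermediate filament desmin, and CDH15 were higher (0.77 ± 0.10 and 0.62 ± 0.07).

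**Figure D3:**
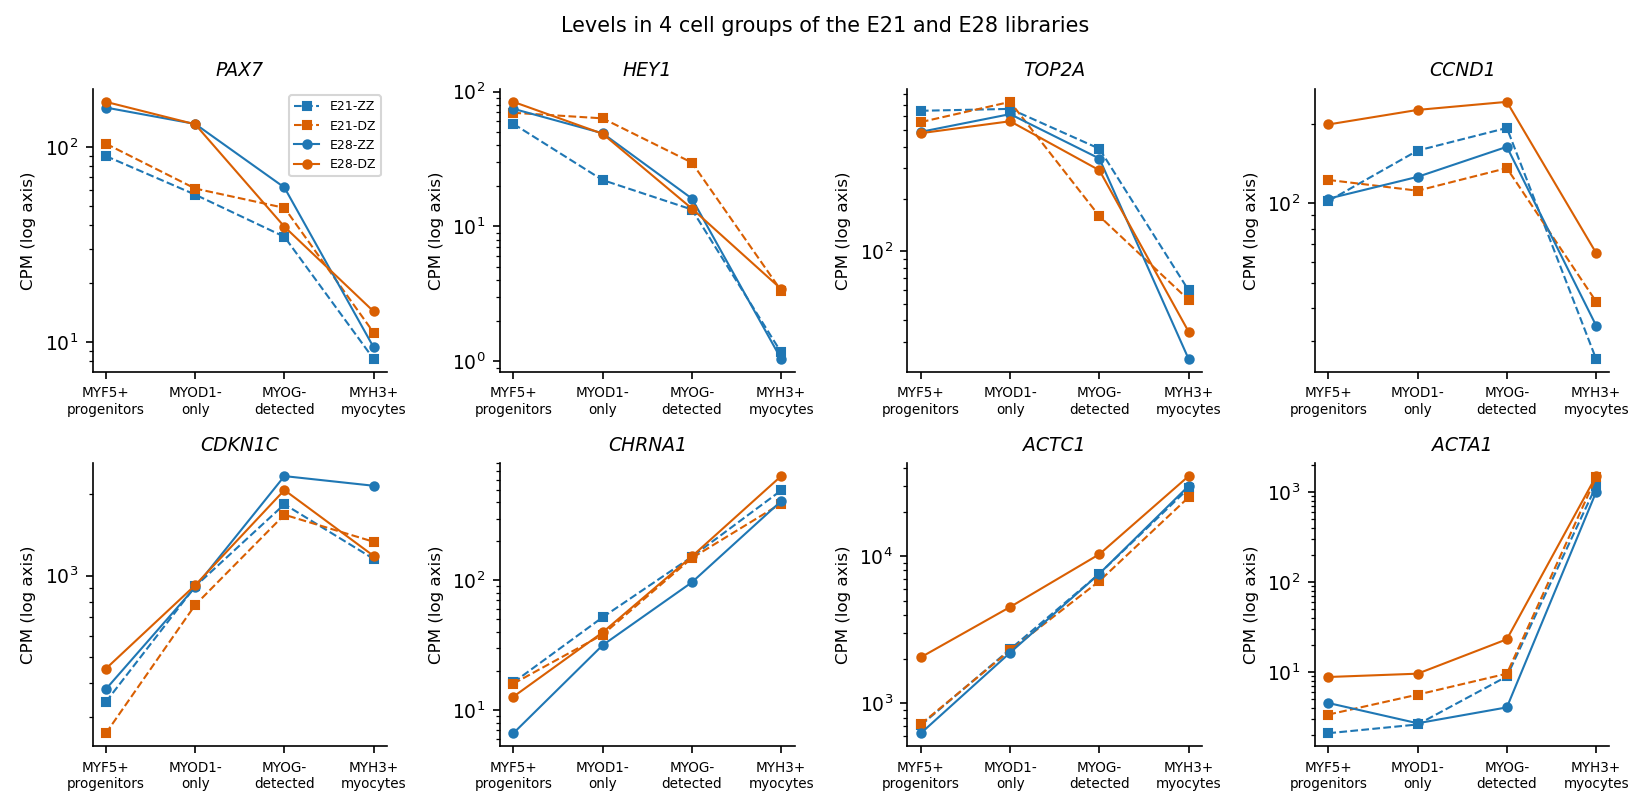
CPM (log axis) of 8 genes in MYF5+ progenitors, in myoblasts with MYOD1 alone, in myoblasts with MYOG and in MYH3+ myocytes; each line is a library (squares and dashes E21, circles E28, blue ZZ, orange DZ). PAX7, HEY1 and TOP2A are lower in cells with MYOG than with MYOD1 alone in every library, CDKN1C is higher, and ACTA1 is at 1004 to 1512 CPM in the myocytes and at 4.02 to 23.1 CPM in the cells with MYOG.

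The myocytes stood much further from the myoblasts. Of 9520 genes tested, 40.1% were called, 18.5% as higher and 21.6% as lower in the myoblasts, and median depth was higher in the myocytes in 4 of the 5 libraries. All 31 sarcomere genes tested were lower in the myoblasts, with a median of −6.01, against 0.03 over all genes tested. Against the progenitors only 27 genes of this list were tested, so some passed the count filter here through the myocytes alone. The direction of such genes was fixed in advance, and they enter the count and the median. ACTA1, the skeletal alpha-actin of mature fibres, was at 15.7 CPM in E18-DZ, 6.33 and 7.44 in the E21 libraries and 3.18 and 15.6 in the E28 libraries in the myoblasts and at 2431 CPM in E18-DZ, 1172 and 1459.9 in the E21 libraries and 1004 and 1512 in the E28 libraries in the myocytes (−7.64 ± 0.19, adjusted p = 4.5e-13). ACTC1 was at 1417 to 7097 CPM in the myoblasts and at 8592 to 35066 CPM in the myocytes (−2.84 ± 0.06, adjusted p = 1.0e-13). MYBPC1, a thick filament protein, and CSRP3, a Z-disc protein, had the largest differences of the list. They were called in no other comparison and may have passed the filter through the myocytes alone, so no fold is given. The calcium store protein CASQ2 held 3 and 2 UMIs in the myoblasts of E28 and 0 in those of the other libraries, and in the myocytes it reached 57.9 to 127 CPM. Genes of the synapse and calcium handling were lower in 15 of 16 cases, CHRNA1 by −2.75 ± 0.14, and genes of the dystrophin complex in 7 of 8. Only 12 genes of the synapse and calcium list were tested against the progenitors. Some, such as CASQ2, thus passed the filter here through the myocytes alone, and their direction was fixed in advance.

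The cell cycle ran the other way. All 28 mitosis genes were higher in the myoblasts, with a median of 2.51, and so were 22 of 24 S phase genes, with a median of 1.67. TOP2A was at 374 CPM in E18-DZ, 499.9 and 461 in the E21 libraries and 514 and 442 in the E28 libraries in the myoblasts and at 80.0 CPM in E18-DZ, 59.5 and 52.5 in the E21 libraries and 24.0 and 34.4 in the E28 libraries in the myocytes (3.03 ± 0.20, adjusted p = 1.3e-08), without overlap. CCNB1 differed by 3.04 ± 0.19 and CCND1 by 1.57 ± 0.18. The CDK inhibitors differed from each other in this step. CDKN1A was lower in the myoblasts, at 15.8 to 66.9 CPM against 284 to 453 CPM (−4.19 ± 0.23, adjusted p = 1.8e-09). CDKN1C was at 925 CPM in E18-DZ, 1458 and 1198 in the E21 libraries and 1439 and 1431 in the E28 libraries in the myoblasts and at 1084 CPM in E18-DZ, 1152 and 1333 in the E21 libraries and 2146 and 1182 in the E28 libraries in the myocytes, a small difference (−0.38 ± 0.11, adjusted p = 0.011) whose direction was not shared by every library.

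Progenitor regulators were higher in the myoblasts in 8 of 16 cases, led by MSC (3.84 ± 0.19, adjusted p = 6.2e-10) and PAX7 (2.41 ± 0.21, adjusted p = 2.9e-07), and EYA4 was lower (−1.98 ± 0.16). Of 14 Notch genes, 7 were higher, among them HEY1 (3.33 ± 0.31) and LFNG, the glycosyltransferase that tunes Notch receptors (2.79 ± 0.30), and 3 were lower, namely the ligands DLK1 (−4.94 ± 0.33) and JAG2 (−4.26 ± 0.42) and HES6 (−0.43 ± 0.15). FGFR4, a receptor kept by muscle progenitors, was higher in the myoblasts (2.55 ± 0.23). Among 20 differentiation regulators, 10 were lower, led by KLF5 (−5.56 ± 0.23), MEF2C (−3.79 ± 0.17) and SMYD1 (−3.33 ± 0.12), and 5 were higher, with SOX8 first (1.80 ± 0.26). Immediate early genes were lower in 13 of 17 cases, including KLF2 (−2.34 ± 0.17) and EGR1 (−1.63 ± 0.19, adjusted p = 7.3e-06), and MYC alone was higher. DES and CDH15 were lower in the myoblasts (−2.43 ± 0.10 and −1.0 ± 0.09), and fibroblast genes were higher in 8 of 9 cases, led by DCN (2.43 ± 0.16). Genes of other cell types were higher in the myoblasts as well, in 4 of 6 cases for sclerotome and cartilage, 3 of 4 for erythroid cells and 2 of 3 for endothelium, and their part was not tested.

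**Figure D4:**
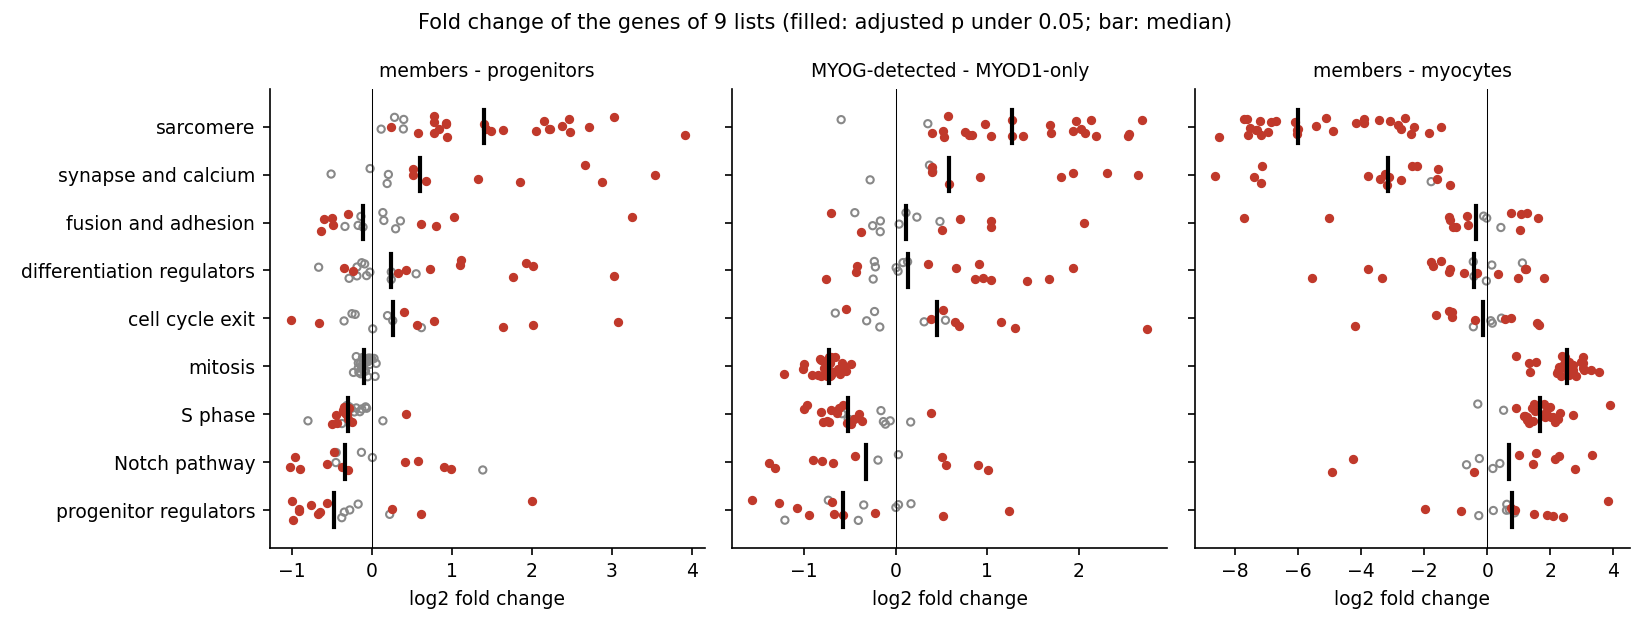
Log2 fold change of each gene of 9 lists (points, filled where the adjusted p was under 0.05, bars at the median) in 3 comparisons, of the myoblasts with progenitors, of cells with MYOG with those of MYOD1 alone, and of the myoblasts with myocytes. Sarcomere genes have medians of 1.40, 1.27 and −6.01, and mitosis genes of −0.10, −0.72 and 2.51. The sarcomere median against myocytes includes genes that passed the count filter through the myocytes alone.

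Between E21 and E28 a small set of genes was called in the myoblasts, among them the regulators RXRG, MSC and LFNG, which were higher at E28, and the integrin gene ITGA6 and the slow troponin gene TNNI1, which were lower. Of 10592 genes tested in the 4 libraries, 0.878% were called, 0.444% as higher and 0.434% as lower at E28. RXRG, a retinoid X receptor, was at 12.1 and 10.4 CPM at E21 and 121 and 125 CPM at E28 (3.38 ± 0.20, adjusted p = 4.1e-04). MSC went from 32.2 and 38.2 to 188 and 436 CPM (3.07 ± 0.38, adjusted p = 0.0098) and LFNG from 17.9 and 11.4 to 77.1 and 83.9 CPM (2.40 ± 0.22, adjusted p = 0.0037). In each of these genes both E28 values lay above both E21 values. RXRG and LFNG were called with any 1 library left out. The low-level regulator NFIX, a factor of the switch to fetal muscle, had 1 and 3 UMIs at E21, or 0.528 and 1.49 CPM, and was at 9.22 and 15.2 CPM at E28. NFIX was called, but it passed the count filter through the E28 libraries alone, so no fold is given. MEOX2 (1.76 ± 0.29), the neurotrophin receptor NGFR (2.19 ± 0.23), NRK (2.71 ± 0.25), FGF9 (1.72 ± 0.31) and FST, the follistatin that binds myostatin and activins (1.21 ± 0.18), were higher as well. The calls of MSC, NFIX, MEOX2, FGF9 and FST were lost both without E21-ZZ and without E21-DZ, and that of NRK without E21-ZZ.

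Lower at E28 were ITGA6, the laminin-binding integrin chain, at 60.7 and 59.5 CPM at E21 and 14.2 and 9.41 CPM at E28 (−2.42 ± 0.25, adjusted p = 0.0058), and the slow troponin TNNI1, at 553 and 387 CPM at E21 and 132 and 160.5 CPM at E28 (−1.74 ± 0.18, adjusted p = 0.0062). NPY, a neuropeptide, was at 326 and 311 CPM at E21 and 51.8 and 30.4 CPM at E28 (−3.03 ± 0.26, adjusted p = 0.0032). CRABP2, which carries retinoic acid to its receptor, fell too (−1.96 ± 0.21), as did the adhesion molecule CADM1 (−1.96 ± 0.35), TNNT1 (−1.11 ± 0.20), SLN, a regulator of the calcium pump (−2.02 ± 0.36), and HOXB9 (−2.29 ± 0.42). The calls of CADM1, TNNT1, SLN and HOXB9 were also lost when either E21 library was left out.

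Other genes of commitment gave no call between these stages. DES, MYMK, CDH15 and CDKN1C differed by −0.01 ± 0.16, 0.06 ± 0.21, −0.06 ± 0.15 and 0.05 ± 0.16. PAX7 was at 43.8 and 55.5 CPM at E21 and 106 and 90.3 CPM at E28 (0.91 ± 0.21, adjusted p = 0.11), and MYF5 differed by 0.83 ± 0.24, CHRNA1 by −0.52 ± 0.23, EGR1 by 0.65 ± 0.27 and RHOB by 0.25 ± 0.22. Of the 26 sarcomere genes tested only TNNI1 and TNNT1 were called, and the median was −0.06. An unadjusted p under 0.05 was found for 11 of them, 3 higher and 8 lower, against 12.8% of all genes tested. With the breed as a block 2 were called as higher and 1 as lower. The median was 0.28 without E28-ZZ and −0.48 without E28-DZ. edgeR called 0 of 28 mitosis genes, 0 of 24 S phase genes and 0 of 15 genes of cell cycle exit. DESeq2 called 0 of each too, 3, 3 and 1 of them had an unadjusted p under 0.05, against 12.8% of all genes tested, and their medians were 0.17, 0.17 and 0.05. MYOG was detected in 54.0% of the E21 cells and 41.2% of the E28 cells, and the part of this shift in the stage comparison was not tested. Among cells with MYOG the mitosis median was 0.43, with 27 of 27 genes above 0 and 0 called. Among cells with MYOD1 alone it was −0.09, with 10 of 28 above 0 and 0 called.

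Connective tissue genes differed between the stages. Of 9 fibroblast markers, 4 were higher in the E28 myoblasts, among them OGN at 31.1 and 23.3 CPM at E21 and 219 and 234 CPM at E28 (3.0 ± 0.18, adjusted p = 4.1e-04) and COL1A1 (1.60 ± 0.20). In cells that were neither progenitors, myoblasts nor myocytes, OGN stood at 78.2 and 89.4 CPM at E21 and 1104 and 1398 CPM at E28. Erythroid markers were lower at E28 in 3 of 5 cases, with a median of −2.01. With the highest doublet scores left out 0 of 4 were called, and the median was −0.49. At E21 HBE1 lay unevenly in the cells, at 4452 CPM with MYOG against 118 with MYOD1 alone in ZZ, and at 101 against 4979 CPM in DZ. Of 7 neuron markers edgeR called 0 and DESeq2 2 as lower, 5 had an unadjusted p under 0.05, against 12.8% of all genes tested, and the median was −2.41. The part of these cell types in the stage difference was not tested. The number of genes called ran from 17 without E21-ZZ and 38 without E21-DZ to 308 without E28-DZ and 416 without E28-ZZ, against 93 with all libraries.

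The E18 myoblasts were few, 19 and 31 cells, and the comparison with E21 was made with a minimum of 15 cells in place of 20 after the cell numbers were known. At this depth 3 UMIs equalled 22.1 and 11.8 CPM. Of 7973 genes tested, 2.97% were called, 1.64% as higher and 1.33% as lower at E21. MYOG was detected in 84% of the E18 cells and 54.0% of the E21 cells, and among the cells with MYOG, whether or not MYOD1 was seen, 140 of 6297 genes were called, in a comparison added after seeing the data. PAX7 held 0 and 1 UMI at E18, under the 3 UMIs that a count of 0 allows, and was at 43.8 and 55.5 CPM at E21, so no fold is given. VGLL2 had 0 UMIs in both E18 libraries and was at 259 and 138 CPM at E21, at least 25.8-fold higher than the 3 UMIs over both libraries that a count of 0 allows. The same bound was 12.1-fold for the integrin gene ITGA4, 6.67-fold for MSTN (myostatin), 4.79-fold for FGFR4, 5.84-fold for NFIB and 5.79-fold for HOXC9. Genes with 0 UMIs in both E18 libraries, these among them, passed the count filter through the E21 libraries alone. Their direction was fixed in advance, and they enter the counts of calls of this comparison. The call of FGFR4 was lost with DESeq2 and without E18-DZ.

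Sarcomere genes were called in both directions. MYL1 was at 7.38 and 15.7 CPM at E18 and 102 and 93.7 CPM at E21 (3.02 ± 0.45, adjusted p = 5.5e-04), ACTN2 was at 29.5 and 19.7 CPM at E18 and 193 and 137 CPM at E21 (2.91 ± 0.39, adjusted p = 1.8e-04), and ACTC1 differed by 1.55 ± 0.23. The E18-ZZ value of MYL1 lay under the level that 3 UMIs equalled in that library, so its fold rests on few UMIs. DES was lower at E21, at 378 and 356 CPM against 1328 and 1004 CPM at E18 (−1.57 ± 0.21, adjusted p = 2.2e-04), as were TNNT3, a fast troponin T (−4.13 ± 0.54), and MYH7, the slow myosin heavy chain (−3.06 ± 0.59). The call of ACTC1 was lost without E18-DZ, and those of TNNT3 and MYH7 when either E21 library was left out. In all, 5 of 23 sarcomere genes were higher and 3 lower, but 2 were higher and 5 lower of 25 without E18-DZ, and 5 were higher and 7 lower with the breed as a block. HOX genes were higher at E21 in 6 of 17 cases and lower in 2, whereas DESeq2 called 1 of 17 as higher and 0 as lower, and edgeR without E18-DZ 1 of 20 as higher and 0 as lower, with 6 at an unadjusted p under 0.05, against 10.9% of all genes. HOXC8, whose call was among those lost, was at 29.5 and 0 CPM at E18 and 85.0 and 118 CPM at E21 (3.38 ± 0.64, adjusted p = 0.0048). Its E18 values lay near or under the level that 3 UMIs equalled in each library, so its fold rests on few UMIs. HOXC9, among the HOX genes called as higher, had 0 UMIs in both E18 libraries, so its direction was fixed in advance. HOXC8 in the cells outside the muscle groups was at 47.8 and 14.5 CPM at E18 and 189.7 and 181 CPM at E21. CRABP2 was at 2229 and 1606 CPM at E18 and 415 and 447 CPM at E21 (−2.05 ± 0.22, adjusted p = 2.6e-05), and CADM1 and PRTG, adhesion receptors, were lower too (−2.72 ± 0.23 and −3.24 ± 0.33).

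The keratins KRT18 and KRT8 were lower at E21 (−6.28 ± 0.75 and −4.57 ± 0.40), and the summed epithelial markers in the E18 myoblasts were 1365 and 378 CPM, against 38.0 and 17.4 CPM at E21. In the other cells they were 2446 and 1993 CPM at E18 and 118 and 92.5 CPM at E21. Markers of other cell types were called as higher at E21, namely the neuron markers STMN2 and TUBB3 (2 of 2 tested), the neural progenitor marker FABP7 (1 of 1), the erythroid HBE1 and HBZ (2 of 3) and 4 of 9 fibroblast markers, with a median of 1.32 for the last list, and their part in this comparison was not tested. FABP7 had 0 UMIs in both E18 libraries and passed the count filter through the E21 libraries alone, so its direction was fixed in advance. The calls of TUBB3, FABP7, HBE1 and HBZ were lost with DESeq2. HES6 (1.96 ± 0.41), CCND1 (1.39 ± 0.32) and the immediate early genes FOS (1.84 ± 0.26) and EGR1 (1.42 ± 0.33) were higher at E21, and MEF2A was lower (−1.31 ± 0.25). The calls of HES6, CCND1 and EGR1 were lost without E18-DZ, and those of CCND1 and EGR1 also with DESeq2. MYF5, MYMK, CDH15, CHRNA1 and CDKN1C gave no call (−0.55 ± 0.24, 0.22 ± 0.24, 0.38 ± 0.22, 0.47 ± 0.33 and 0.25 ± 0.23). Without E18-DZ 121 genes were called, against 237 with all 4 libraries.

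**Figure D5:**
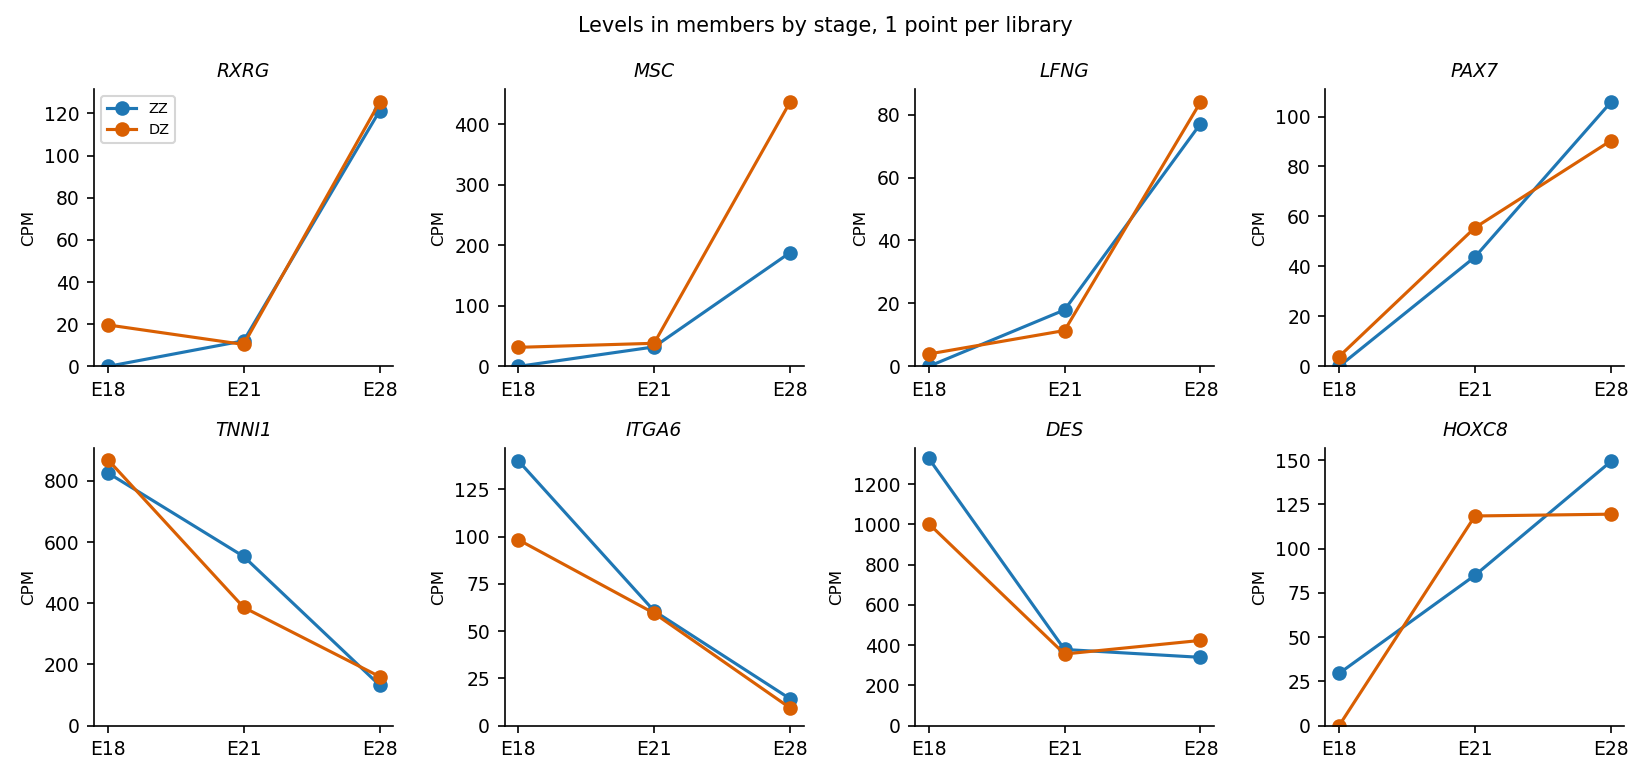
CPM of 8 genes in the myoblasts of E18, E21 and E28 (points, 1 per library, blue ZZ and orange DZ). RXRG, MSC and LFNG are high at E28 only, PAX7 is at 0 and 3.94 CPM at E18 and at 43.8 to 106 CPM later, TNNI1 and ITGA6 are lowest at E28, and DES is highest at E18.

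Stage differences were also compared between the myoblasts and their MYF5+ progenitors as an interaction of cell kind and stage. Of 11133 genes tested, 0.674% were called, 0.171% with a larger E28 to E21 ratio in the myoblasts and 0.503% with a smaller one. RXRG was at 10.1 and 15.5 CPM in the progenitors at E21 and 82.6 and 139 CPM at E28, and its interaction missed the threshold (0.32 ± 0.34, adjusted p = 0.87). ITGA6 (−0.53 ± 0.25), TNNI1 (−0.04 ± 0.14) and LFNG (0.33 ± 0.22) gave no call either. Larger ratios in the myoblasts were found for MGP, a matrix protein (2.49 ± 0.26, adjusted p = 1.5e-06), for 3 of 28 mitosis genes, BUB1B, CCNB1 and HMGB2, and for TNNT1 (0.48 ± 0.09). Smaller ones were found for TNNC1 (−1.20 ± 0.19, adjusted p = 4.6e-04), EYA2 (−1.09 ± 0.24), HES1 (−0.99 ± 0.15, adjusted p = 1.9e-04) and CDKN1C (−0.36 ± 0.09). Within the myoblasts, TNNC1, EYA2, CDKN1C and TNNT1 were higher and BUB1B, CCNB1, HMGB2 and HES1 lower in cells with MYOG than with MYOD1 alone. MYOG was detected in 54.0% of the E21 myoblasts and 41.2% of the E28 myoblasts, and the part of this shift in the interaction was not tested. CCNB1 was at 102 and 105 CPM at E21 and 98.3 and 94.5 CPM at E28 in the progenitors and at 80.2 and 72.4 CPM at E21 and 113 and 99.1 CPM at E28 in the myoblasts (0.57 ± 0.12, adjusted p = 0.026). DESeq2 called 9 genes in place of 75, with MGP among them, and 20 were called when every cell was thinned to 1500 UMIs. Of the mitosis genes DESeq2 and the thinned counts called 0, with 8 and 7 at an unadjusted p under 0.05, against 1.40% and 6.90% of all genes.

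The breeds were compared over E21 and E28 with the stage as a block, which left 1 residual degree of freedom. Of 10592 genes tested, 0.0755% were called, 0.0566% as higher and 0.0189% as lower in DZ, that is, 6 and 2 genes. The immediate early genes ATF3 and KLF4 were among them. Of the 17 genes of that list 2 were called, 8 had an unadjusted p under 0.05, all higher in DZ (4.44% of all genes had one), and the median was 0.68, against −0.00088 over all genes tested. Of 26 sarcomere genes edgeR and DESeq2 called 0, 8 and 5 had an unadjusted p under 0.05, all higher in DZ, and the median was 0.37. ATF3 was at 7.92 and 38.7 CPM at E21 and 2.68 and 41.8 CPM at E28 (3.27 ± 0.35, adjusted p = 0.025), and in the progenitors it was at 11 and 63.4 CPM at E21 and 10.6 and 101 CPM at E28. KLF4 differed by 2.17 ± 0.30. The other called genes were CXCL14 (−3.47 ± 0.36), PDLIM2 (−2.48 ± 0.32), CCDC173 (2.38 ± 0.29), MAFF (2.32 ± 0.29), FILIP1L (1.99 ± 0.25) and 1 gene given only as an identifier, all named after their values were seen. CCDC173 stood at 5.81 and 28.3 CPM at E21 and 6.03 and 31.5 CPM at E28 in the myoblasts and at 7.51 and 35.6 CPM at E21 and 5.92 and 36.8 CPM at E28 in the cells outside the muscle groups. MYF5, PAX7, MYMK, CDH15, CHRNA1, DES, CDKN1C, EGR1 and RHOB gave no call, with differences from −0.08 to 0.49. Of 10592 genes, 470 had an unadjusted p under 0.05, and without the stage block edgeR called 0, with 207 at an unadjusted p under 0.05 and 11 called by DESeq2 with the block.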

How the data were processed

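Deposited 10x Genomics count matrices of 8 libraries were used, in which the authors had counted UMIs per gene and barcode with Cell Ranger (per the file headers version 3.1.0 for the 2 libraries of E16 and 3.0.2 for the other 6) on Sscrofa11.1. The E16 libraries were left out of every comparison. Of 90688 barcodes, 194 had under 200 genes, 279 more than 30000 UMIs and 7967 more than 10% of UMIs on 13 mitochondrial genes. These counts overlap, and removing the barcodes in any of them left 82394 cells. Among these, 831 barcode sequences occurred in 2 or more libraries (1670 cells) and were kept. Doublets were not removed, and leaving out the 8247 highest Scrublet scores (scanpy 1.11.5, 0.8% per 1000 barcodes) was an alternative. Of 434 genes in 28 lists, 398 had a row, and the others, among them MYMX, TTN, MKI67 and IGF2, were not analysed here.

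UMIs were summed over the cells of a kind in each library (at least 20 cells) and tested with edgeR 4.0.16 (TMM, filterByExpr, quasi-likelihood test, two-sided, Benjamini-Hochberg adjustment, threshold 0.05), with DESeq2 1.42.0 as an alternative, in R 4.3.3. The myoblast sums ranged from 135488 to 8292755 UMIs. Levels are CPM of these sums without TMM. The members and the lists were chosen with earlier results of these data known. Named genes were the 10 largest called differences each way with an average log2 CPM of at least 5, and up to 4 called genes per list. The largest differences also had to have the same sign in every library, except in the interaction, where this was not checked. MYF5, PAX7, EGR1, RHOB, MYMK, CDH15, CHRNA1, DES and CDKN1C were to be named too, but not every value is given. RHOB and DES were called as higher with MYOG than with MYOD1 alone. Against the myocytes, MYF5 was called as higher and RHOB as lower in the myoblasts. Other named genes were picked from the lists after their values were seen. The scripts were tested on simulated data. Promoters were read from RefSeq's copy of Sscrofa11.1.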

Additional observations from a re-analysis of the deposited data

Results flagged for a closer look

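The ratio of E28 to E21 differed between the myoblasts and the MYF5+ progenitors, by the interaction of cell kind and stage in edgeR's quasi-likelihood test, for 75 of 11133 genes, and 30 of these were named by the rules. Each value is the log2 ratio in the myoblasts minus that in the progenitors. DESeq2 called 9 genes, of which MGP and SPATS2L are given here, and edgeR called 20 when every cell was thinned to 1500 UMIs. MYOG was detected in 54.0% of the E21 myoblasts and 41.2% of the E28 myoblasts, and the part of this shift in these ratios was not tested.

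Higher ratios in the myoblasts were found for MGP (2.49), DCX (1.33), BUB1B (0.87), LMNA (0.83), CDC42EP3 (0.80), PIMREG (0.73), FNDC5 (0.66), CCNB1 (0.57), PCLAF (0.53), TNNT1 (0.48), LIMCH1 (0.48) and HMGB2 (0.44). BUB1B, PIMREG, CCNB1, PCLAF and HMGB2 take part in DNA replication or mitosis. MGP, an inhibitor of calcification, stood in the myoblasts at 9.50 and 28.3 CPM at E21 and 103 and 41.4 CPM at E28 and in the progenitors at 15.4 and 50.5 CPM at E21 and 39.5 and 8.28 CPM at E28.

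Lower ratios were found for HBB (−4.77), AHSP (−2.69), MYBPH (−1.87), NEFL (−1.47), TUBB3 (−1.44), NR4A1 (−1.26), INKA2 (−1.22), TNNC1 (−1.20), EYA2 (−1.09), YPEL3 (−1.07), MATN4 (−1.05), PGM5 (−1.04), SPATS2L (−1.01), HES1 (−0.99), DUSP1 (−0.57), COL3A1 (−0.42), COL1A2 (−0.39) and CDKN1C (−0.36). HBB and AHSP are erythroid and NEFL and TUBB3 neuronal genes. DCX, given above among the higher ratios, is a neuronal gene too. The summed levels of these cell types differed between libraries, and their part was not tested. HES1, a Notch target, was at 44.3 and 203 CPM at E21 and 38.9 and 61.0 CPM at E28 in the myoblasts and at 64.9 and 201 CPM at E21 and 70.2 and 147 CPM at E28 in the progenitors. EYA2 was at 76.5 and 52.6 CPM at E21 and 56.3 and 62.5 CPM at E28 and 11 and 9.79 CPM at E21 and 15.1 and 24.8 CPM at E28.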

How the results depend on the processing

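Of the named genes under all alternatives, 4785 values kept their direction and side of the threshold, 478 were no longer called, 12 became called and 29 changed sign. E28 against E21 gave 93 calls, 175 with DESeq2, 639 without the filter on low counts, 153 with the breed as a block and 44 in cells with MYOG (with or without MYOD1, against 111 in cells with MYOD1 alone), and 17 to 416 when 1 library was left out. E21 against E18 gave 237 calls, 111 with DESeq2, 140 in cells with MYOG and 121 to 306 with 1 library left out. DZ against ZZ gave 8, with 48 without the filter, 16 at 5% mitochondrial UMIs, 19 with MYH3 at 0 and 0 without the stage block. Myoblasts against progenitors gave 1767, 970 with DESeq2, 928 when thinned to 1500 UMIs and 1058 (without E28-DZ) to 1998 with 1 library left out. Myoblasts against myocytes gave 3820 and 1318 when thinned. Cells with MYOG against MYOD1 alone gave 1975, 853 with DESeq2, 911 when thinned and 1117 (without E28-DZ) or 1175 (without E28-ZZ) to 1918 with 1 library left out. The interaction gave 75, 9 with DESeq2, 128 with RLE factors, 137 without the filter, 39 without doublets, 33 at 5% mitochondrial UMIs, 20 when thinned and 56 to 110 with 1 library left out. Fewer reads or fewer samples enter the thinned and left-out versions. Calls rose as well as fell when 1 library was left out, and the causes of all these differences were not tested.

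The share of cells chosen by the same rule after thinning to 1500 UMIs was 0%, 0.0314%, 0.0766%, 0.0511%, 1.39%, 1.29%, 4.93% and 7.56% from E16 to E28. With at least 2 UMIs of MYOD1 and MYOG together it was 0.0189% for E16-DZ, then 0.0194% and 0.0483% (E18), 1.46% and 1.11% (E21), and 5.19% and 7.95% (E28). At 5% mitochondrial UMIs it was 0.0871% and 0.196% at E18 and 3.23% and 3.30% at E21, and with MYH3 at 0 it was 8.49% and 11.3% at E28.

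Among the genes whose sign changed, HBB against progenitors (−2.47), KLF2 with MYOG against MYOD1 alone (0.44) and MATN4 in the interaction (−1.05) had been called. The sign changed mostly at values near 0. For E28 against E21 these were RHOB (−0.098 without E28-DZ, with 0.52 at the other end of the left-out range), MYMK (−0.037 without doublets, −0.11 without E21-DZ, −0.21 without E28-DZ, other end 0.29), CDH15 (0.20 with MYOD1 alone), DES (0.029 without the filter, 0.027 with MYH3 at 0, 0.030 without E21-DZ, 0.12 without E28-ZZ, other end −0.16, 0.19 with MYOD1 alone) and CDKN1C (−0.011 without doublets, −0.10 at 5% mitochondrial UMIs, −0.0029 without E21-DZ). For E21 against E18 without E18-DZ they were MYMK (−0.086, other end 0.58) and CDKN1C (−0.040, other end 0.64), and between breeds PAX7 (−0.011 without the block) and CDH15 (0.024 at 5% mitochondrial UMIs). HBB against progenitors was 0.076 without doublets. For MYOG against MYOD1 alone they were EGR1 (−0.0056 with DESeq2, −0.010 with MYH3 at 0, −0.022 without E21-ZZ, −0.096 without E28-ZZ, other end 0.15) and KLF2 (−0.17 without E28-DZ, other end 0.54). In the interaction they were MATN4 (0.059 thinned), MYMK (−0.048 without E21-DZ, −0.052 without E28-ZZ, other end 0.38), CDH15 (0.11 without E21-ZZ, other end −0.16) and DES (0.21 without E21-DZ, 0.0032 without E28-DZ, other end −0.32). E21 against E18 could not be run at 20 cells or at 5% mitochondrial UMIs, and the breeds not with a library left out, for want of cells or residual degrees of freedom. The depth of E18, 135488 and 254021 UMIs, leaves low genes undetected.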
